A study of Mus musculus with 30 samples.

Results

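DNA methyltransferases place methyl groups on cytosines, mostly where a cytosine is followed by a guanine (CpG). Dnmt1 copies the pattern onto new strands after replication, whereas Dnmt3a and Dnmt3b set methylation on unmethylated DNA. Methyl-CpG binding domain proteins such as Mbd1, Mbd2 and Mbd3 read or resemble readers of that mark and recruit repressor complexes. In the mammalian brain, neurons gain DNA methylation after birth, outside CpG as well, and Dnmt3a is the enzyme known for it.

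The 6 genes Dnmt1, Dnmt3a, Dnmt3b, Mbd1, Mbd2 and Mbd3 were followed in the primary visual cortex (V1) of mice. The array annotation gives one of these symbols alone to 12 of 36899 probe sets, and 6 of those 12, for 5 of the 6 genes, were bright enough to enter the fit of 20724 probe sets. The probe sets were chosen by symbol. The family itself was selected from genes whose signals over the 3 ages had already been seen, so its signals are given as a description, with no p-value. Calls by limma on these signals are given as a description too. The mice were at postnatal day 14 (P14, about eye opening), day 28 (P28, in the critical period of ocular dominance plasticity) or day 60 (P60, young adult). The youngest and the middle age had 3 litters each and the oldest 4. All groups had standard rearing, and the labels name no genotype or treatment. The number of animals in a litter sample, their strain and their sex are not given in the sources used here, and the p-values assume separate litters. Signal is the MAS5 signal, a linear measure of a probe set's brightness in which every array has a trimmed mean of 500.

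The arrays were uneven. The 3 arrays of P14 litter 1 had Actb signals 12.2 to 12.8 times higher at the 3' than at the 5' end of the transcript (Gapdh 9.57 to 12.2), against at most 1.5 on the other 27 arrays. In mean correlation with the other arrays of its chip type, P14 litter 1 was lowest on chips A (0.796) and B (0.783), P60 litters 1 and 4 had 0.862 and 0.882 on chip A and 0.811 and 0.807 on chip B, and P60 litter 2 had 0.789 on chip C. The remaining arrays lay between 0.899 and 0.922 on chip A and between 0.866 and 0.895 on chip B. On chip C they lay between 0.855 and 0.884, P14 litter 1 (0.831) apart. For the members, the difference between P14 and P60 is given with all litters and without P14 litter 1. It is also given in a restricted set that leaves out P14 litter 1 and the P60 arrays named above. For other genes the restricted set is given where it moves the value by over 1.5 times. All 7 annotated excitatory neuron markers were bright enough to be tested. Of 5 markers of cerebellum, liver and choroid plexus, Pcp2 was bright enough and Gabra6, Alb, Apoa1 and Ttr were not.

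Dnmt3a, the methyltransferase on which the results turn, has several start sites in RefSeq (GRCm38.p6, plus strand), from which a long and a short protein are made. The 250 bases before 2 of them are shown, because the array signal is assigned to the gene and not to either form. The lower case letters run 5′ to 3′, and capitals mark each CpG, the site that these enzymes methylate, which reads the same on both strands. The first window is chr12:3806730-3806979 and the second is chr12:3891494-3891743.
Dnmt3a upstream start: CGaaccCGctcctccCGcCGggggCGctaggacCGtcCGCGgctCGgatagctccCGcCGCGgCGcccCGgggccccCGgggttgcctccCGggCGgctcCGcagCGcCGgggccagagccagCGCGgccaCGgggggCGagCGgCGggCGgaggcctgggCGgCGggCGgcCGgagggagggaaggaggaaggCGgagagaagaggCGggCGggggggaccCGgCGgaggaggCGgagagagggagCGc
Dnmt3a downstream start: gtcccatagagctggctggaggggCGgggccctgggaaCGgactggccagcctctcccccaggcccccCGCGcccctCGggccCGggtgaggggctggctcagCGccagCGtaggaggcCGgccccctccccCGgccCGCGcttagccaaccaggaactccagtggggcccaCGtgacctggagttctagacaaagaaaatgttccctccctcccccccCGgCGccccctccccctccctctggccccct

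The upstream window holds 38 CpG and the downstream one 15. As many as 38 were found in 1.88% of 32851 promoter windows of the same length in the RefSeq table, and as many as 15 in 27.3%, with a median of 6. The methylation of these windows was not measured in this study.

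Dnmt3a was highest in the cortex at eye opening and lower at each later age, on its bright probe set 113658_at of chip B. At P14 the signals were 1956, 2597 and 2652 in litters 1 to 3. At P28 they were 1257, 1371 and 1081. At P60 they were 852, 804, 885 and 720 in litters 1 to 4. No litter of one age overlapped with a litter of another, and the order of the ages was P14, P28, P60 from high to low. The means were 2402 ± 387 (SD, n = 3), 1236 ± 146 (SD, n = 3) and 815 ± 71.8 (SD, n = 4), so that the P28 mean was 51.5% and the P60 mean 33.9% of that at P14.

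On the log2 scale with the added constant, Dnmt3a differed by -0.92 (standard error 0.19) between P14 and P28, by -0.57 (0.18) between P28 and P60, and by -1.49 (0.18) between P14 and P60. Per day this was -0.066 over the first 14 days and -0.018 over the following 32. Without P14 litter 1 the difference between P14 and P60 was -1.62, and in the restricted set it was -1.57. In that set the 2 remaining P60 litters on chip B are litters 2 and 3. The lowest of the P14 signals, 1956, was that of litter 1, the litter with the high 3' to 5' ratios.

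The fit of all probe sets gives the background for these values. Dnmt3a was the 1 of 6 member probe sets called by limma between P14 and P60, where 0.396% of all probe sets were called. With all litters, none of the 6 was called between P14 and P28, where 0.00483% of probe sets were (1632 had an unadjusted p under 0.05), or between P28 and P60, where 0% were (1125 had an unadjusted p under 0.05). In all, 6.42% of probe sets had every P60 litter below every P14 litter, and 0.444% had the 3 ages in falling order with no overlap. In size, the fall of Dnmt3a to P60 was the 93rd largest of 9364 falls among the 20724 probe sets. Nothing further is read from these ranks and calls, because the gene was picked with its signals known. Between P14 and P28, Dnmt3a was called in the restricted set, at -1.06 (standard error 0.16), where 208 probe sets were called, and in no other setting. The call between P14 and P60 was also made in 16 of 18 other settings. All of these refit the same arrays, so they give no separate support. That call was not made without P14 litter 2 or with the litter number as a block, both of which called 0 probe sets.

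**Figure D1:**
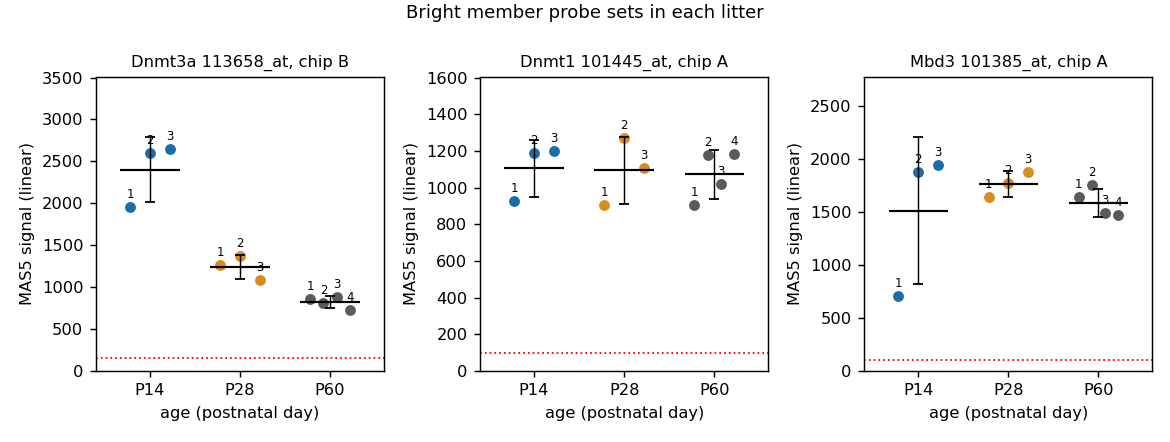
MAS5 signal (linear axis from 0) of the bright probe sets of Dnmt3a, Dnmt1 and Mbd3 in each litter, numbered, by age. Black lines are means with SD, and the dotted red line is the 95th percentile of the Bacillus control probe sets of that chip. Dnmt3a falls from a mean of 2402 to 815 with no overlap between ages, Dnmt1 stays between 903 and 1269, and Mbd3 lies between 1468 and 1944 except for P14 litter 1 at 710.

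Markers of some cell types moved over the same ages, and fewer cells of a type and less RNA per cell cannot be told apart in whole tissue. All 6 tested markers of myelinating oligodendrocytes were higher at P60 than at P14, with a median difference of 1.10. Mag, an adhesion protein of myelin, passed the test. Their summed signal ran from 4445 to 9075 at P14, from 9829 to 15896 at P28 and from 10730 to 15520 at P60. The 7 excitatory neuron markers had a median difference of -0.20 between P14 and P60, with none past the test with all litters. In the restricted set it was -0.07, and Camk2a and Tbr1 passed, 1 higher and 1 lower. Without P14 litter 1, Tbr1 passed. The summed signal of the 7 markers ran from 32315 to 44414 at P14, from 29927 to 34741 at P28 and from 28344 to 36232 at P60. The 3 tested blood markers were all higher at P28 than at P14 (median 1.19, none past the test). That median was 0.68 both in the restricted set and without P14 litter 1. Between P14 and P60 the median was 1.04, and 0.63 without P14 litter 1. The summed signals of the blood markers were 5272 to 23993 at P14, 24816 to 34303 at P28 and 17478 to 51144 at P60. The 4 tested markers of oligodendrocyte progenitors were all lower at P60 than at P28 (median -0.49, none past the test), with sums of 5866 to 12386, 7040 to 11154 and 4852 to 7771 at the 3 ages. Between P14 and P60, 3 of the 4 progenitor markers were lower (median -0.51). In the interneuron, astrocyte, microglia and endothelial lists, markers went both ways between P14 and P60, with none past the test with all litters. Their medians were 0.23, -0.26, 0.11 and 0.33, and 0.15, -0.05, -0.19 and -0.12 in the restricted set. There Gad1 and Gad2 passed, 1 higher and 1 lower. Without P14 litter 1 the 4 medians were 0.10, 0.09, -0.31 and 0.20. In that setting Gad1 and Gad2 passed as well, and so did the endothelial marker Cldn5, which was lower at P60. The part of the marker shifts in the fall of Dnmt3a was not tested.

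The other 3 Dnmt3a probe sets were dim. On chip A, 100479_at stood at 18.5, 184 and 201 at P14, at 37.6, 86.6 and 66.3 at P28, and at 61.4, 77.1, 62.6 and 87.3 at P60. P14 litters 2 and 3 were thus above every later litter, and P14 litter 1 was below all of them. Only those 2 signals exceeded 98.4, the 95th percentile of the control probe sets for Bacillus transcripts on chip A, which serves as a measure of background. The probe sets 161170_r_at (chip A, from 1.74 to 33.4) and 166504_r_at (chip C, from 25.6 to 283) were of a type designed under relaxed rules. The first lay below background on all 10 arrays and the second on 9 of 10 (chip C, 252).

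Dnmt3b, the other de novo enzyme, was near background. Its probe set 164028_at on chip B stood at 364, 44.8 and 43.8 at P14, at 56.5, 239 and 79.9 at P28, and at 556, 185, 207 and 427 at P60. The ages overlapped, and only 6 of 10 arrays were above the background of chip B, 153. The P60 mean of 344 ± 179 (SD, n = 4) stood against 151 ± 184 (SD, n = 3) at P14, a log2 difference of 1.18 with a standard error of 0.57. The size of that difference depends on the added constant, since the P14 and P28 means lay below background. The highest 3 signals were those of P60 litters 1 and 4 and of P14 litter 1, the arrays of chip B with the lowest mean correlations. Only these 3 exceeded the chip B median of 252, so the probe set entered the fit through them alone. Without P14 litter 1 the difference was 1.87, and in the restricted set it was 1.31. The other probe set, 115066_at, lay between 47.3 and 77.7 except for P28 litters 1 and 2, at 257 and 235, and showed no such rise.

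Dnmt1, the maintenance enzyme, showed nearly equal signals at the 3 ages. On 101445_at (chip A) the litters stood at 926, 1187 and 1202 at P14, at 903, 1269 and 1110 at P28, and at 907, 1179, 1022 and 1186 at P60. The ages overlapped throughout, with means of 1105 ± 155 (SD, n = 3), 1094 ± 183 (SD, n = 3) and 1074 ± 134 (SD, n = 4). The log2 difference between P14 and P60 was -0.04 with a standard error of 0.20, and it ran from -0.16 to 0.04 over the other settings, and was -0.12 in the restricted set and -0.16 when P14 litter 1 was left out. A second probe set, 161601_i_at, exceeded background on 1 of 10 arrays. The Dnmt1 mean at P60 was 97.2% of that at P14 and the Dnmt3a mean, on another chip, 33.9%. The difference between the 2 genes was not tested.

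**Figure D2:**
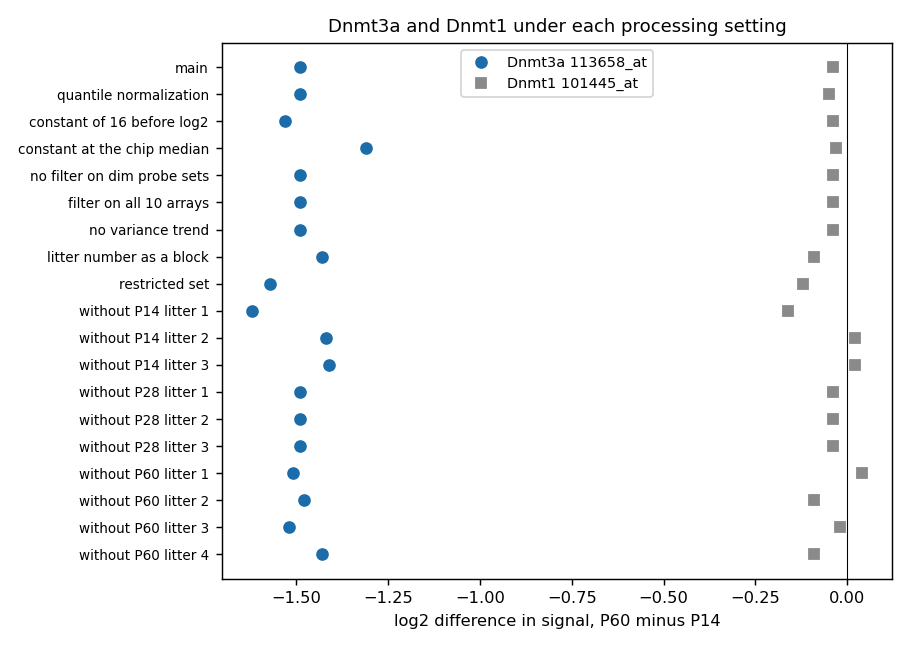
Log2 difference in signal between P60 and P14 (horizontal axis) for Dnmt3a (blue circles) and Dnmt1 (grey squares) under the main setting and 18 others. Dnmt3a lies between -1.62 and -1.31 and Dnmt1 between -0.16 and 0.04. The settings reuse the same arrays, and some of them cannot move the values.

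Mbd3, a subunit of the NuRD repressor complex that in mammals binds methylated DNA weakly, was above background on all 10 arrays and showed no direction that held over the litters. On 101385_at (chip A) the signals were 710, 1876 and 1944 at P14, 1637, 1769 and 1880 at P28, and 1640, 1749, 1489 and 1468 at P60. P14 litter 1 was far below every other litter, and litters 2 and 3 of that age were above every P60 litter. With all litters the log2 difference between P14 and P60 was 0.19 with a standard error of 0.30. Without P14 litter 1 it was -0.27 with a standard error of 0.15, and in the restricted set -0.24 (0.16), so the sign rests on that litter.

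Mbd1, which binds methylated CpG through its domain of that name, gave different pictures on its 2 probe sets. On 163253_at (chip B) the litters stood at 781, 438 and 648 at P14, at 408, 610 and 635 at P28, and at 643, 911, 1005 and 484 at P60, with overlap between all ages. On 104340_at (chip A) they stood at 312, 244 and 238 at P14, at 121, 133 and 176 at P28, and at 38.2, 198, 277 and 143 at P60. Here all P28 litters were below all P14 litters, an order not counted over all probe sets, and the P60 litters spread over both. The log2 differences between P14 and P60 were 0.25 (standard error 0.28) on the first and -0.75 (0.42) on the second, and in the restricted set 0.78 (0.25) and -0.04 (0.28). Without P14 litter 1 they were 0.42 (0.29) and -0.64 (0.48). Between P14 and P60 the probe sets thus differed in sign. Between P14 and P28 both were lower with all litters, at -0.15 (0.30) and -0.74 (0.45).

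Mbd2, a reader that joins a form of NuRD in place of Mbd3, was measured by 160833_at (chip A), which was above the chip median on 1 array and did not enter the fit. The signals were 187, 87.5 and 66.4 at P14, 169, 119 and 89.9 at P28, and 163, 228, 193 and 179 at P60. All 4 P60 litters were above background, as were 1 of 3 at P14 and 2 of 3 at P28, and the P60 litters overlapped with litter 1 of each earlier age. The means were 114 ± 64.2 (SD, n = 3), 126 ± 40.1 (SD, n = 3) and 191 ± 27.9 (SD, n = 4).

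**Figure D3:**
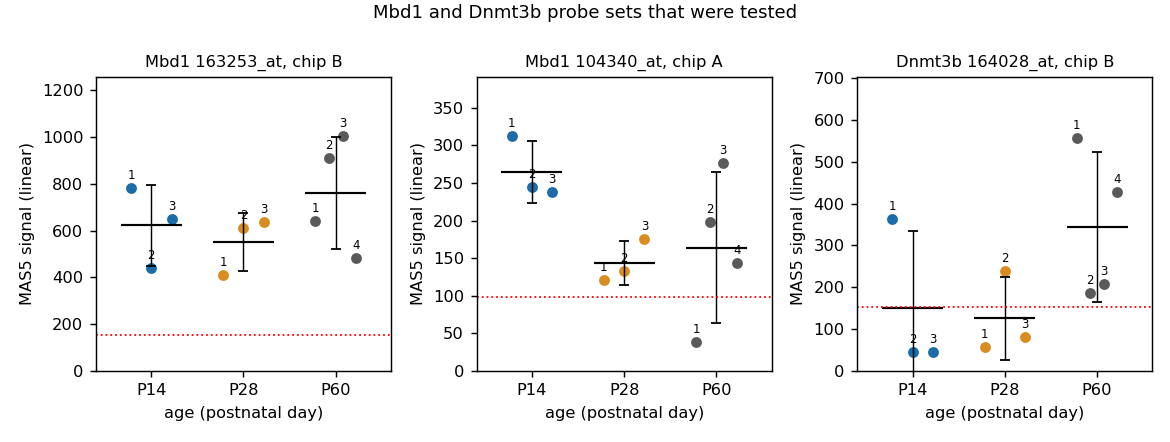
MAS5 signal (linear axis from 0) of both Mbd1 probe sets and of Dnmt3b 164028_at in each numbered litter by age, with mean and SD in black and chip background (95th percentile of Bacillus controls) as a dotted red line. Mbd1 104340_at has a P14 mean of 265 and a P28 mean of 143 where 163253_at has 622 and 551, and Dnmt3b is led by P60 litters 1 and 4 at 556 and 427.

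**Figure D4:**
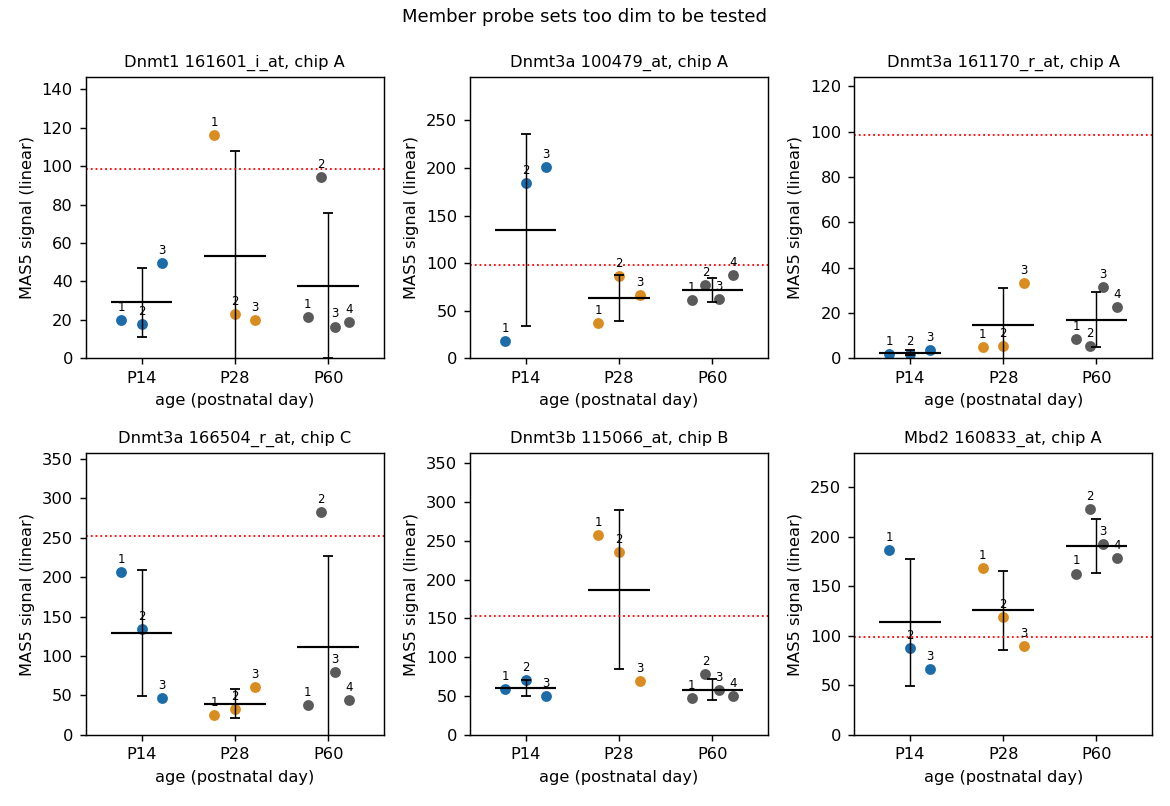
MAS5 signal (linear axis from 0) of the 6 member probe sets that were too dim for the fit, in each numbered litter by age, with mean and SD in black and chip background as a dotted red line. Dnmt3a 100479_at is above background in P14 litters 2 and 3 only, and Mbd2 is above it in all 4 P60 litters.

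By the pattern over the 10 litters (Pearson correlation of log2 signals, 6347 other single-symbol probe sets of chip B), the genes most like Dnmt3a were Mef2c (0.962), Nav1 (0.952) and 1500004A13Rik (0.946). Mef2c, a transcription factor of cortical neurons, had mean signals of 8182, 3938 and 3049 at the 3 ages on that probe set, 114712_at. Nav1, a protein of growing neurites, had 1693, 909 and 781. The litters and arrays are shared, and other probe sets of these genes were less like Dnmt3a, from 0.194 to 0.890 over 6 for Mef2c and from -0.215 to 0.858 over 3 for Nav1. For Dnmt3b the nearest were Acsl6 (0.969), Sgip1 (0.938) and Lrrc14b (0.925). All 3 were highest in P60 litters 1 and 4, with Acsl6 at 603 and 448 there against 267 and 335 in litters 2 and 3. P14 litter 1 came next in each, at 412, 278 and 485. The other tested probe sets of Acsl6 and Sgip1 were much less like Dnmt3b, at 0.074 and 0.423.

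Other genes of the pathway were counted in 8 lists with 105 tested genes, as a background to the members. None was called between P14 and P28 (7 had an unadjusted p under 0.05) or between P28 and P60 (2 had). Between P14 and P60, 1 of 105 passed and 16 had an unadjusted p under 0.05, as did 3261 of all 20724 probe sets. The median difference between P14 and P60 was 0.07 over the 105 and 0.057 over all tested probe sets. The adjusted p-values that follow are those of limma over all probe sets.

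Among 18 tested partners and paralogs of the methyltransferases, 12 were higher at P60 (median 0.11) and none passed. The largest differences were those of Dnmt3l, the paralog without catalytic activity, at 0.87 (adjusted p = 0.17), the acetyltransferase Kat5 at 0.80 (adjusted p = 0.371) and the heterochromatin protein Cbx3 at 0.60 (adjusted p = 0.652). The Cbx3 means at the 3 ages (124, 211 and 228) lay below the chip C background of 252, so its value depends on the added constant, and it was 1.14 without P14 litter 1. Dnmt3l stood at 1080, 1403 and 1299 at P14, at 1623, 1560 and 1814 at P28, and at 3398, 1769, 1515 and 3221 at P60. Every later litter was above every P14 litter, an order not counted over all probe sets. P60 litters 1 and 4 were apart from litters 2 and 3. In the restricted set the difference was 0.27 for Dnmt3l and -0.08 for Kat5.

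The 5 tested other readers of methylated CpG showed 4 higher at P60 (median 0.20) and none past the test. Zbtb4, a zinc finger reader, differed by 0.65 (adjusted p = 0.28), Zbtb38 by 0.28 (adjusted p = 0.725), and Mbd4, a glycosylase that removes mismatched thymine, by 0.20 (adjusted p = 0.725). In the restricted set Zbtb4 stood at 0.39 and Zbtb38 at 0.57, and without P14 litter 1 Zbtb38 stood at 0.03 and Mbd4 at 0.37. Of 9 tested genes of NuRD, 5 were higher (median 0.07) and none passed. The remodellers Chd5 and Chd4 stood at 0.87 (adjusted p = 0.232) and -0.79 (adjusted p = 0.185), and the histone chaperone Rbbp4 at -0.62 (adjusted p = 0.245). In the restricted set these were 0.22, -0.31 and -0.27, and without P14 litter 1 Rbbp4 stood at -0.35. The other 2 tested Chd4 probe sets stood at -0.20 and 0.88, and the other one of Chd5 at 0.40. Of 9 Sin3 and NCoR corepressor genes, 4 were higher (median -0.03) and none passed, with Sap130 at 0.63 (adjusted p = 0.256), Rcor1 at 0.44 (adjusted p = 0.52) and the deacetylase Hdac3 at -0.29 (adjusted p = 0.575). Sap130 stood at 0.21 in the restricted set, and Rcor1 at 0.79 without P14 litter 1. The other tested probe sets stood at 0.53 and 0.32 for Sap130 and at -0.09 and 0.69 for Rcor1.

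Genes that remove methylation or excise bases were 11, of which 5 were higher at P60 (median -0.02) and none passed. Tet1, an enzyme that oxidises methylcytosine, had the largest fitted difference of the 105 genes with all litters, of a size that is not firmly measured. It ran from -2.85 to -1.27 over the settings, where Igf2 ran from -1.87 to -1.60. Its probe set 133204_at (chip C) stood at 410, 365 and 417 at P14, at 90.7, 63.9 and 38.6 at P28, and at 23.7, 21.1, 215 and 15.6 at P60. All P14 litters were above the background of 252 and no later litter was. Thus the fitted difference of -2.28 (standard error 0.52, adjusted p = 0.0837) depends on the added constant. It passed without P60 litter 3, the litter at 215, with a range of adjusted p from 0.016 to 0.266 over the settings. Smug1, a glycosylase of base excision repair, stood at -1.18 (adjusted p = 0.124). Tet3 stood at -1.11 (adjusted p = 0.387), with P60 litters 1 and 4 at 48.1 and 60.7 against 773 and 466, and at 0.14 in the restricted set, and its other tested probe set stood at -0.18.

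In the methyl donor cycle 7 of 10 genes were higher (median 0.17) and none passed. Mat2b, a subunit of the enzyme that makes S-adenosylmethionine, stood at -0.50 (adjusted p = 0.491), Mthfd1 at 0.43 (adjusted p = 0.432) and Shmt2 at 0.33 (adjusted p = 0.407). The other tested probe sets stood at 0.11 for Mat2b and at 0.84 and -0.47 for Mthfd1, and Shmt2 stood at 0.04 in the restricted set. P14 litter 1 was at 10736 for Mat2b, against 3199 and 3779 in the other P14 litters, and without it the difference was 0.04 (0.07 in the restricted set). Of 16 genes of dividing cells, in which Dnmt1 is usually high, 8 were higher (median 0.01) and none passed, with Mcm4 at 1.06 (adjusted p = 0.179), Lig1 at 0.76 (adjusted p = 0.53) and Plk1 at 0.71 (adjusted p = 0.32). Without P14 litter 1 Mcm4 stood at 0.63 and Lig1 at 0.23, and in the restricted set the 3 stood at 0.38, -0.26 and 0.44. The other tested Plk1 probe set stood at -0.17.

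Genes of the imprinted list, at many of which DNA methylation sets the parental alleles apart, numbered 27. Of these, 15 were higher at P60 (median 0.03). Whether they are imprinted in the cortex was not measured. Igf2, a growth factor also made by the meninges, fell by 1.79 on the log2 scale (adjusted p = 0.00937, and from 0.00146 to 0.108 over the settings). It was the 1 gene of the 105 that passed, and it did not pass without P14 litter 2 or with the litter number as a block. Th stood at 1.99 (adjusted p = 0.114), from a P14 mean of 51.9 below background, and Rasgrf1, an exchange factor for Ras, at 1.19 (adjusted p = 0.0787). The other tested Rasgrf1 probe set stood at -0.05, and Th stood at 1.26 in the restricted set. Without P14 litter 1, 3 of the 105 genes passed, and the additional ones, named after their values were seen, were Meg3, an imprinted noncoding RNA that was lower at P60, and Gadd45a, a stress-induced gene linked to demethylation that was higher. Meg3 stood at 1352 in P14 litter 1, against 5420 and 5388 in the other P14 litters.

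**Figure D5:**
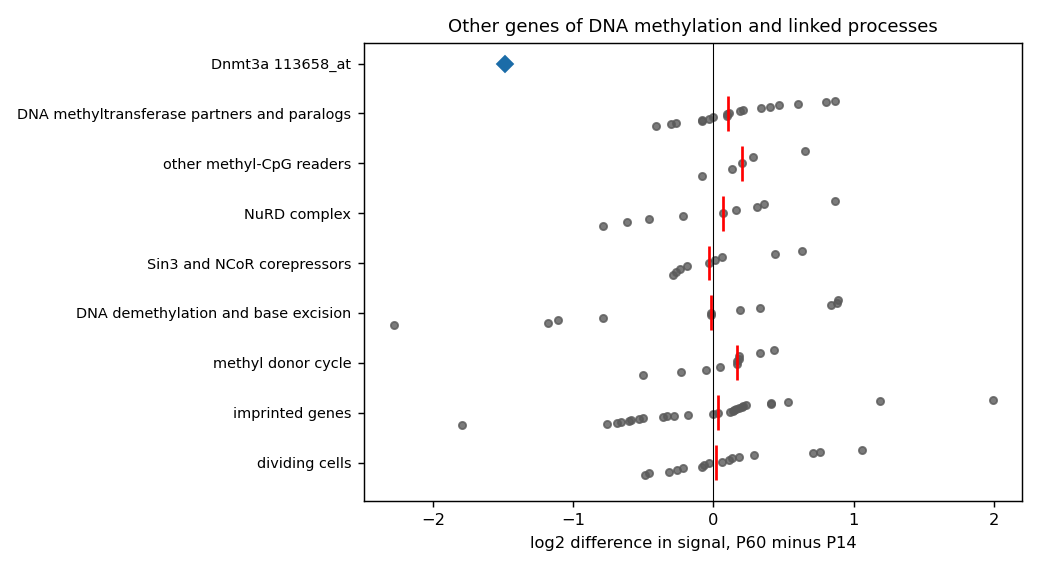
Log2 difference in signal between P60 and P14 (horizontal axis) for each of the 105 tested genes in 8 lists (grey points, 1 per gene, red lines at list medians) and for Dnmt3a (blue diamond at -1.49). List medians lie between -0.03 and 0.20, and the farthest points to the left are Tet1 at -2.28 and Igf2 at -1.79.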

How the data were processed

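RNA of 10 litters was hybridised to 30 Affymetrix arrays, with 3 chip types (MG-U74 chips A, B and C) per litter. The authors deposited MAS5 signal intensities, linear and unlogged, as the submitters' processing notes and the tables' values show. Each array's 2% trimmed mean is 500, so scaling to a common level preceded deposition and none was added. Every title opens with litter 1 and then gives an age and another litter number, which was taken as the litter. Gene symbols came from the array annotation, updated through gene IDs (99.7% matched).

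For analysis, log2 was taken after adding the 20th percentile of the chip type (38.6, 57.8 and 44.0 for A, B and C). Tested were the 20724 probe sets that exceeded their chip's median (207, 252 and 183) on 3 or more arrays. limma 3.58.1 under R 4.3.3 fitted age alone to each chip type, with moderated variances that follow a trend, and p-values were adjusted by Benjamini-Hochberg across all chips (threshold 0.05). The fit was tested on simulated data. Every member probe set is given on its own. Of the other genes' tested probe sets the brightest was used, with chip A before B and C. All members are named. From each list of other genes, those that passed are named and, where fewer than 3 did, the 3 that differed most between P60 and P14. Members and lists were chosen with earlier results of these data known. Alternatives were quantile normalization, other constants and filters, no variance trend, the litter number as a block, each litter left out, and a restricted set. That set leaves out P14 litter 1 on all chips, P60 litters 1 and 4 on chips A and B, and P60 litter 2 on chip C. Leaving out arrays with low correlations can lower the spread between litters and so raise the number of calls. Detection calls and single-probe intensities were not used here. The number of arrays limits the precision.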

Additional observations from a re-analysis of the deposited data

Results flagged for a closer look

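At P60, where 4 litters allow it, each of the 12 member probe sets was examined for a litter that stands apart from the other 3 (Dixon's criterion on the gap divided by the range). Chance marks about 1 in 20 such groups. Both litters found were P60 litter 2 on dim probe sets. On Dnmt1 161601_i_at it stood at 94.5, against 16.6 to 21.4 in the others (gap over range 0.938). On Dnmt3a 166504_r_at it stood at 283, against 37.6 to 79.3 (0.83), on the chip C array with the lowest mean correlation of its type, 0.789. Whether that array's quality has a part in the value was not tested.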

How the results depend on the processing

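The members' log2 differences moved by more than the spread between litters in 7 of 318 recomputed values. Among these were Dnmt3a between P14 and P60, at -1.31 with the chip median as the added constant, Mbd3 without P14 litter 1, and both Mbd1 probe sets in the restricted set. Some of the 318 values could not move, since the filters and the variance trend leave a difference of means as it is. Nor does leaving out a litter of an age outside the comparison change it. Dnmt3a kept its sign in all 18 settings for each comparison, including those that could not move it. The mean of the 2 Mbd1 probe sets stood at -0.25 between P14 and P60, where the brighter one stood at 0.25.

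The counts of called probe sets moved far more. The filter on all 10 arrays left 12457 probe sets to test, against 20724 in the main setting. Between P14 and P28, 1 was called, with 4 for the chip median as constant, 4 for the filter on all 10 arrays, 208 in the restricted set and 0 to 26 when a litter was left out. Between P28 and P60, 0 were called, and 0 to 1 with a litter left out. Between P14 and P60, 82 were called, with 170 for the filter on all arrays, 51 without a variance trend and 441 in the restricted set. Without P14 litters 1, 2 and 3 it was 497, 0 and 28, without P28 litters 1, 2 and 3 it was 37, 40 and 37, and without P60 litters 1 to 4 it was 18, 28, 260 and 8. Of the 105 other pathway genes, 2 were called between P14 and P28 in the restricted set and 0 to 1 with a litter left out. Between P14 and P60 it was 2 with the filter on all arrays, under which 68 of these genes were tested. With a litter left out it was 0 to 3, and 0 without P14 litter 2.

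With the litter number as a block, 0 probe sets and 0 of the 105 genes were called in every comparison. The deviations of same-numbered litters correlated between -0.0626 and 0.132, above 0.1 in 1 of 9 pairs. A litter was most like its own number in 9 of 18 comparisons with another age. The share expected without pairing was not worked out, so these values do not decide whether the numbers pair the litters. The cause of the changes in the counts of called probe sets was not tested. Signals near the Bacillus controls, as for Dnmt3b, Mbd2 and Tet1 after P14, limit what can be said of those genes.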
